A study of Caenorhabditis elegans with 4 samples.

Results

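Chromosome IV of Caenorhabditis elegans carried 398 of the 2590 regions listed as bound by R02D3.7::GFP in the combined peak list of L4 larvae. The members are all combined peaks placed on chromosome IV, and nothing about their strength or width entered the choice. The protein was immunoprecipitated from crosslinked worms with antibodies against GFP, and the recovered DNA was sequenced (ChIP-seq). All 4 libraries came from strain OP218, with 2 of immunoprecipitated DNA (ChIP replicates 1 and 2) and 2 of input DNA kept from the extracts before precipitation. The worms were hermaphrodites of an unc-119(ed3) strain, grown at 20 °C on HB101 bacteria and fixed with 2% formaldehyde. They carried the transgene wgIs218, which holds R02D3.7 with TY1, EGFP and FLAG tags at its C-terminus, and unc-119. The transgene was introduced by bombardment and the strain outcrossed 3 times, and it is present behind the ChIP and the input libraries alike. Where it inserted and in how many copies is not given in the sources used here. No untagged strain and no other stage was analysed here, and the input libraries gave no values here.

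R02D3.7, now named rcat-1, is called a transcription factor by the labels. A transcription factor binds DNA in or near the genes it controls, and in worms most such sites lie in the short stretches between closely packed genes. The worm's autosomes have a gene-rich centre with little recombination and 2 arms with more repeats and more recombination. A ChIP peak marks a region where fragments are enriched over a control, and strong peaks of worm factors often fall in places that many factors occupy. The bases under the peaks and the genes beside them were not analysed here, so each region is given by its position on build WS190.

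Among the 3 deposited lists, chromosome IV held 398 combined peaks, 210 peaks of ChIP replicate 1 and 130 of ChIP replicate 2. These are 15.37%, 16.79% and 16.05% of the respective lists, while the chromosome makes up 17.5% of the summed span of the 6 chromosomes. A chromosome's span was counted from its first base up to its last peak in the 3 lists, and was 17.471 Mb for IV. The peak caller's q-value, a p-value adjusted over the regions tested, is the authors' and is given as -log10 q, called strength below. It depends on sequencing depth, which is unknown, so strengths are ranked within a list. Where values of several lists stand side by side, they are the listed values and no measure of more or less binding. Nothing says that the numbered libraries came from separate cultures, and the spread between them may be technical. How the combined list was made is not given in the sources used here, and it is not treated as a further replicate. Intervals are 95% intervals for counting error alone, and they are too narrow where peaks are not independent of their neighbours.

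The far left end of chromosome IV held the strongest peak of each single library, and the combined list had no peak there. In replicate 1 this peak lay at 254497 to 258513 with a strength of 303.1. In replicate 2 it lay at 253160 to 258361 with a strength of 143.2. Both ranked 1 in their list, and they overlapped by 3865 bp. The peak ranked 2 had a strength of 176.4 in replicate 1 and of 114.1 in replicate 2. With 4017 and 5202 bp, these were also the widest peaks of IV in their lists. A single other region of IV was present in both replicates and absent from the combined list, at 13549244 to 13549661 in replicate 1 (strength 2.81) and 13549263 to 13549662 in replicate 2 (4.55). Across the 6 chromosomes such regions numbered 3 in each list, with 2 on IV and 1 on X.

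On either side of the missing region the combined list went on. Its neighbour on the left, at 240058 to 241627, had a strength of 55.38, with 36.85 in replicate 1 and 24.99 in replicate 2. It was the first peak of the chromosome in all 3 lists and ended 11532 bp before the missing region. The neighbour on the right, at 261033 to 266378, began 2519 bp after it. This right-hand peak was the widest combined peak of IV, at 5346 bp, with the second widest at 2614 bp, and yet it was among the weakest of its list, at a strength of 2.10 and rank 2480. Its partners were narrower, at 1761 bp in replicate 1 and 620 bp in replicate 2, and ranked 494 and 210 in their lists, with listed strengths of 4.07 and 6.20. It was the single case among the 94 IV peaks found in both replicates in which the -log10 q listed for the combined peak was the smallest of the 3. On the other chromosomes this occurred in 3 of 455. Among the 140 combined peaks of IV with a strength under 3, the next widest measured 536 bp.

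R02D3.7 itself is a gene of chromosome IV. In the RefSeq gene table, which is on the later build WBcel235, rcat-1 is number 42 of 3281 protein-coding genes counted from the left end, between grl-19 and R02D3.8. Positions of that build were not carried over to WS190. Whether the region with the strongest replicate peaks holds the tagged gene, and what part the transgene has in its reads, was not tested.

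Further into the first 500 kb, the combined list placed 4 peaks near each other, the leftmost of them one of the strongest sites of the chromosome. That site, at 384691 to 387304, reached a strength of 163.5 there, against 109.5 in replicate 1 and 65.9 in replicate 2. Replicate 1 split it into 2 peaks, at 384660 to 386436 and, much weaker, at 386639 to 387280 (strength 4.94). The peak at 387743 to 388126 had a strength of 3.91 and was found in replicate 2 alone, at 2.33. The peak at 390290 to 390654 was found in both replicates, with strengths of 12.0, 6.67 and 4.16 in the combined list, replicate 1 and replicate 2. The fourth, at 393565 to 393675, had a strength of 2.59 and no partner. Of the 4, only the leftmost 2 lay within 2 kb of each other.

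The remaining combined peaks of the first 500 kb had strengths of at most 4.37, beside a median of 3.64 over the combined peaks of IV. A combined peak at 427538 to 427781 (4.37) and one at 322582 to 322781 (3.51) had partners in replicate 1 alone, of 2.65 and 2.23. One at 292431 to 292586 (2.29) had none. Replicate 1 also listed peaks at 443828 to 443925 (2.69) and 454571 to 454639 (2.48) that neither other list held. In all, 9 combined, 10 replicate 1 and 6 replicate 2 peaks had their middle in these 500 kb.

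**Figure D1:**
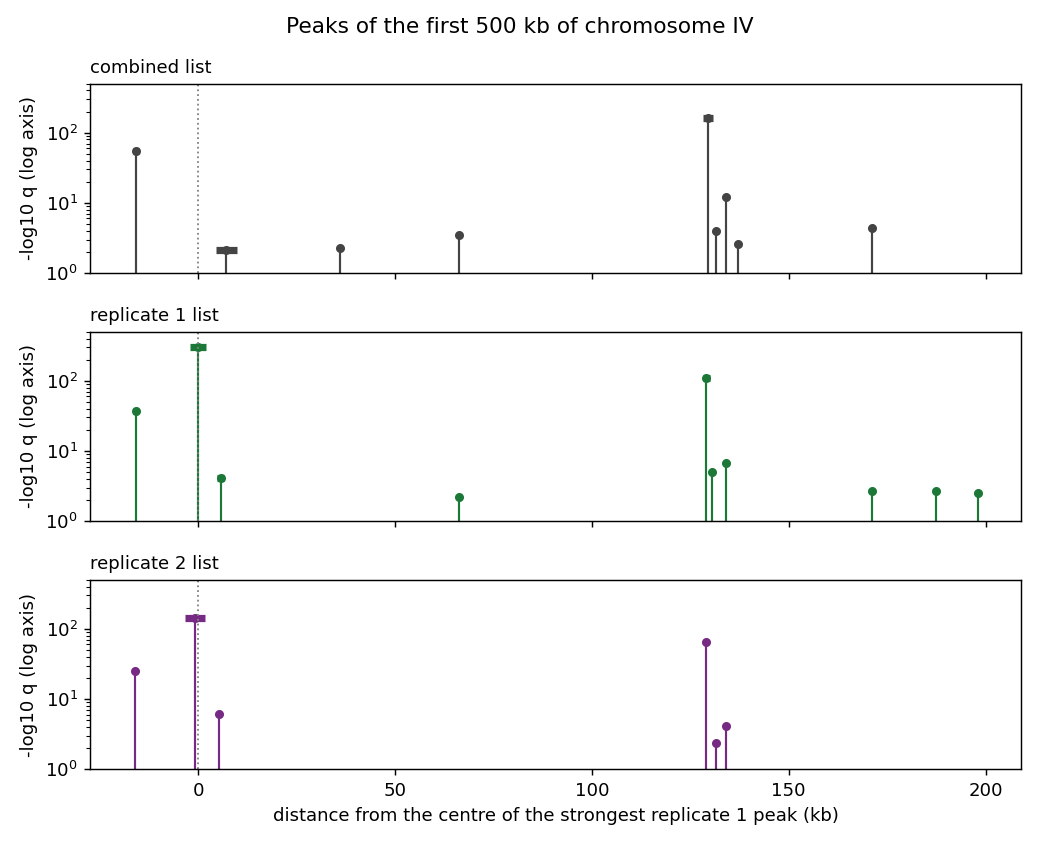
Peaks with their middle in the first 500 kb of chromosome IV in the combined list and the 2 ChIP replicate lists, by distance in kb from the centre of the strongest replicate 1 peak (x axis) and -log10 q on a log axis (y axis). Thick horizontal bars show peak width and thin lines drop to the axis. At distance 0 the replicates reach 303.1 and 143.2 and the combined list has no peak.

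The first 1 Mb as a whole held an ordinary number of peaks in the combined list and was well filled in the single libraries. It held 24 combined peaks, equal to the median of the 17 complete 1 Mb windows of IV, which ranged from 5 to 35. In replicate 1 it held 18, the fourth highest count of a range from 3 to 20. In replicate 2 it held 12, the highest count of a range from 1 to 12, shared with the window from 8 to 9 Mb. Of the 24 combined peaks, 9 had partners in both replicates, and 6 had a q-value under 1e-10. Over all of IV these counts were 94 of 398 (23.6%) and 59 of 398 (14.8%). Over all combined peaks the shares were 21.2% and 14.3%. No interval was computed for the 2 counts of this window. The first 1 Mb held 8.57% of the replicate 1 peaks of IV, against 4.995% on the other chromosomes and 5.6% of all replicate 1 peaks, a difference of 3.58 percentage points (Newcombe interval 0.15 to 8.29). In replicate 2 the shares were 9.23% and 4.26% (5.06% of all), and the difference was 4.97 points (0.70 to 11.3). In the combined list the shares were 6.03% and 5.43% (5.52% of all), and the interval of the difference, -1.60 to 3.52 points, held 0. Chromosomes I and V were nearest to IV in the replicates, with 7.27% and 6.67% in replicate 1 and 5.56% and 5.81% in replicate 2. In the combined list chromosome I was higher than IV, at 8.11%.

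No list had a peak before base 239923 of IV. The first combined peak began at 240058 on IV, at 353227 on X and between 1079 and 18939 on the other 4 chromosomes. At the other end, the last combined peak of IV reached 17470564.

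Along the whole chromosome, peaks of IV lay more to the left than those of the other chromosomes, in all 3 lists. The first 25% of the span held 113 of the 398 combined peaks (28.4%, Wilson interval 24.2 to 33.0). On the other 5 chromosomes together it held 427 of 2192 (19.5%), with single chromosomes between 12.3% and 25.2%. Over all combined peaks the share was 20.8%. The difference between IV and the others was 8.91 points (Newcombe interval 4.37 to 13.8). In replicate 1 this stretch held 29.5% on IV and 17.2% elsewhere (19.3% of all), a difference of 12.3 points (6.09 to 19.2). In replicate 2 it held 26.2% and 14.3% (16.2% of all), a difference of 11.9 points (4.53 to 20.4). Chromosome I was close to IV, with 30.3% in replicate 1 and 24.4% in replicate 2, so IV ranked first in the combined list and in replicate 2 and second in replicate 1. The left 50% of the span held 227 combined peaks (57.0%; 49% of all), 122 of replicate 1 (58.1%; 49.1% of all) and 77 of replicate 2 (59.2%; 48.5% of all). Chromosome I had the larger share in both replicates, at 64.2% and 60.0%. These divisions of the span were chosen after the positions had been seen.

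The central 50% of the span of IV held a smaller share of peaks. It contained 206 combined peaks (51.8%, interval 46.9 to 56.6), the lowest share of the 6 chromosomes, against 57.2% elsewhere and 56.4% of all combined peaks. Chromosomes X (52.8%), II (53.9%) and I (54.7%) were close to it, and III (59.7%) and V (63.1%) were higher. The difference of IV from the others together was -5.49 points, with an interval from -10.8 to -0.20. In replicate 1 the share was 50.0% on IV and 59.9% elsewhere (58.3% of all), a difference of -9.94 points (-17.3 to -2.60), and X was lower still at 47.8%. In replicate 2 it was 54.6% and 62.9% (61.6% of all), and the interval of the difference, -17.6 to 0.76, held 0. The interval for the combined list also held 0 with peaks under 500 bp apart merged (-9.49 to 1.64) and among the stronger 50% of peaks (-14.5 to 0.13). It lay below 0 without peaks shorter than 50 bp (-11.5 to -0.08) and with the span taken between the outermost combined peaks (-13.1 to -2.48). Without the first 1 Mb of IV the combined share was 55.1%, a difference of -2.17 points, and the interval from -7.64 to 3.21 held 0. The difference for the first 25% of the span then was 4.32 points (-0.07 to 9.16). In both cases peaks of the first 1 Mb were left out on IV alone and the span was kept. By this setting the central share could only rise and the share of the first 25% only fall.

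Strong peaks, those with a q-value under 1e-10, lay to the left as well. Of the 59 on IV in the combined list, 37 lay in the left 50% of the span (62.7%, interval 49.95 to 73.9), while 48.1% of the 312 strong peaks elsewhere did (42.6 to 53.6). On chromosome I the share was 60.6%. Along IV, in 4 equal parts from left to right, they numbered 19, 18, 9 and 13. In replicate 1 the left 50% held 23 of 37 strong peaks of IV (62.2%), 62.5% of those of chromosome I and 44.4% of those of the other 5 chromosomes together. In replicate 2 it held 19 of 28 (67.9%), against 70.0% on chromosome I and 47.4% on the others together. In each list the interval on IV overlapped that of the others together, and no interval of their difference was computed. These 59 were 14.8% of the combined peaks of IV, close to the 14.3% of all combined peaks. The shares were 17.6% on IV and 17.2% of all peaks in replicate 1, and 21.5% and 17.5% in replicate 2. For these shares of strong peaks among all peaks, the interval of the difference from the other chromosomes held 0 in each list.

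**Figure D2:**
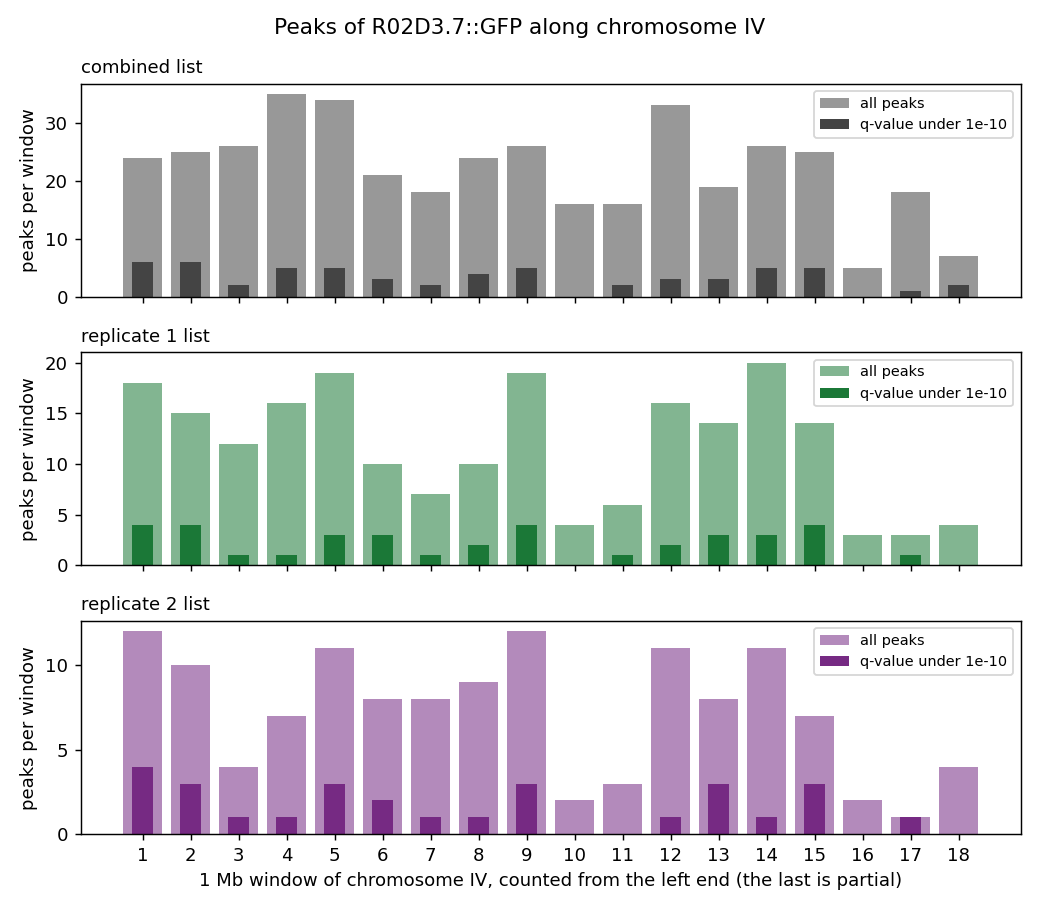
Number of peaks in each 1 Mb window of chromosome IV (x axis, numbered from the left end) in the combined list and the lists of ChIP replicates 1 and 2. Pale bars count all peaks and dark bars those with a q-value under 1e-10. Window 16 holds 5 combined peaks and window 4 holds 35.

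The right arm contained a long stretch that the single libraries left almost empty. Replicate 2 had no peak from 15039903 to 16865258, a gap of 1825 kb. Within it, replicate 1 had 3 peaks, none above a strength of 2.89, and its own largest gap on IV, 1185 kb from 15471639 to 16656166. That was the largest gap of any chromosome in replicate 1, while in replicate 2 chromosome V had a larger one of 1923 kb. The combined list placed 19 peaks inside the replicate 2 gap, or 10.4 per Mb, compared with 22.8 per Mb over all of IV. They were weak, with a median strength of 2.68 and a highest of 5.15, and 16 of the 19 overlapped no replicate peak. Since the stretch is by its choice free of replicate 2 peaks, this count follows largely from how it was picked and is not compared with the rest of the chromosome. A further 2 combined peaks reach over the edges of the gap. One of these 2 is the fourth strongest combined peak of IV, at 16865135 to 16866567 (strength 146.9), which closes the stretch on the right. The stretch was singled out after its values were seen.

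The largest gap between combined peaks of IV lay in the same stretch, at 15039987 to 15471413 (431.4 kb). The next were at 4049817 to 4388874 (339.1 kb) and at 10493028 to 10821584 (328.6 kb). None of the 3 gaps contained a peak of either replicate. Besides, the centre of the chromosome had its own thin part. The windows from 9 to 11 Mb held 16 combined peaks each, with 4 and 6 peaks in replicate 1 and 2 and 3 in replicate 2, and the first of these windows had no strong peak. Over the 17 complete windows the counts of replicates 1 and 2 ran together (Spearman's rho 0.85, Pearson's r 0.87), as a description over windows of 1 chromosome that share its uneven content.

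Chromosome IV had fewer combined peaks per Mb than the other chromosomes together, and more of its peaks had a close neighbour. Peak density was 22.8 per Mb (Poisson interval 20.6 to 25.1), lower than the 26.5 per Mb elsewhere (25.4 to 27.7). Chromosome V was close to IV at 22.5, X was lower at 20.1 and III highest at 38.1. In replicate 1 it was 12.0 per Mb on IV and 12.6 elsewhere, and in replicate 2 it was 7.44 and 8.23, with overlapping intervals. The 397 gaps of the combined list had a median of 18.1 kb (interval 12.7 to 25.1), against 15.7 kb (14.3 to 17.6) elsewhere, so that the intervals overlapped. They ran from 204 bp to 431.4 kb, with the middle 50% between 2.56 and 63.35 kb. Of them, 66 were at most 1 kb, 97 from 1 to 10 kb, 179 from 10 to 100 kb and 55 above 100 kb. No 2 peaks of any list lay closer than 200 bp on any chromosome.

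Another combined peak lay within 2 kb of 160 of the 398 peaks of IV (40.2%, interval 35.5 to 45.1). This was the highest share of the 6 chromosomes, with 39.1% on III and 19.9% on X, and compares with 34.4% of all combined peaks. Relative to the other chromosomes together (33.4%), the difference was 6.81 points (Newcombe interval 1.70 to 12.1). In replicate 2 the share was 29.2% on IV, 20.0% elsewhere and 21.5% of all, a difference of 9.23 points (1.42 to 18.0). In replicate 1 it was 28.1%, 22.7% and 23.6%, and the interval of the difference, -0.81 to 12.3, held 0. For combined peaks it also held 0 with a limit of 5 kb (-2.25 to 8.36), with peaks under 500 bp apart merged (-0.21 to 9.66) and among the stronger 50% of peaks (-4.59 to 8.42). It lay above 0 with a limit of 1 kb (3.95 to 13.6) and without peaks shorter than 50 bp (2.22 to 13.3). Without the first 1 Mb of IV it did so too (1.21 to 11.85). The difference was 8.64 points at 1 kb and 3.08 points at 5 kb.

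The neighbours formed 70 runs, of which 52 were pairs, 16 had 3 peaks and 2 had 4 peaks. Runs of 3 or more numbered 18 on IV, 22 on each of III and V, 17 on I, 10 on II and 9 on X. The longest on IV spanned 4970 bp at 8375140 to 8380109, with 3 peaks of which 2 were strong. Neither run with 4 peaks held a strong peak. The 4 at 11601100 to 11605257 had strengths from 2.18 to 2.79 and no replicate peak. The run at 14790717 to 14794492 reached 5.70, and 1 of its 4 peaks overlapped a replicate peak. A strong peak was part of 29 of the 70 runs, which held 68 peaks. Of the 160 peaks with a neighbour, 27.5% were found in both replicates and 21.25% were strong, compared with 21.0% and 10.5% of the 238 without one. No interval was computed for these differences, and the same shares were not computed for the other chromosomes.

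Peaks of IV were wider than those of most other chromosomes. The median width of its combined peaks was 235 bp (interval 208 to 271), with the middle 50% between 119 and 450 bp, against 194.5 bp (188 to 199) on the other 5 chromosomes and 199 bp over all. In replicate 1 the medians were 290.5 bp (258 to 342) on IV and 232 bp (210 to 264) elsewhere. In replicate 2 they were 317 bp (247 to 394) and 230 bp (200 to 252). Chromosome I was wider still, with 239, 389 and 364 bp, and the remaining 4 chromosomes had medians from 166 to 231.5 bp over the 3 lists. The intervals of IV and the others overlapped in both replicates and were apart in the combined list. The wider medians held on both sides of the limit for strong peaks. Strong combined peaks had a median of 967 bp on IV and 823.5 bp elsewhere, and the others 200 and 172 bp.

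Within IV, width rose with strength. Across peaks, Spearman's rho between them was 0.80 for combined peaks, 0.85 for replicate 1 and 0.86 for replicate 2, close to the 0.82, 0.88 and 0.86 of the other chromosomes. At the lower end, 55 combined peaks of IV (13.8%) were shorter than 50 bp, against 16% of all, and 4 were 2 bp long. Those 4 lay at 6426034 to 6426035, 879369 to 879370, 9258842 to 9258843 and 4705651 to 4705652, with strengths from 2.26 to 3.29, and the first overlapped a replicate 2 peak of 192 bp. In the replicates the narrowest peaks of IV were 18 bp, at 1845236 to 1845253 in replicate 1, and 16 bp, at 8432887 to 8432902 in replicate 2. The short peaks were 4.29% of replicate 1 peaks on IV (8.39% of all) and 3.85% of replicate 2 peaks (7.16% of all). Together the combined peaks of IV covered 148.7 kb, a mean of 374 bp a peak. Median strength was 3.64 on IV (interval 3.34 to 3.85) and 3.43 elsewhere (3.38 to 3.56).

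**Figure D3:**
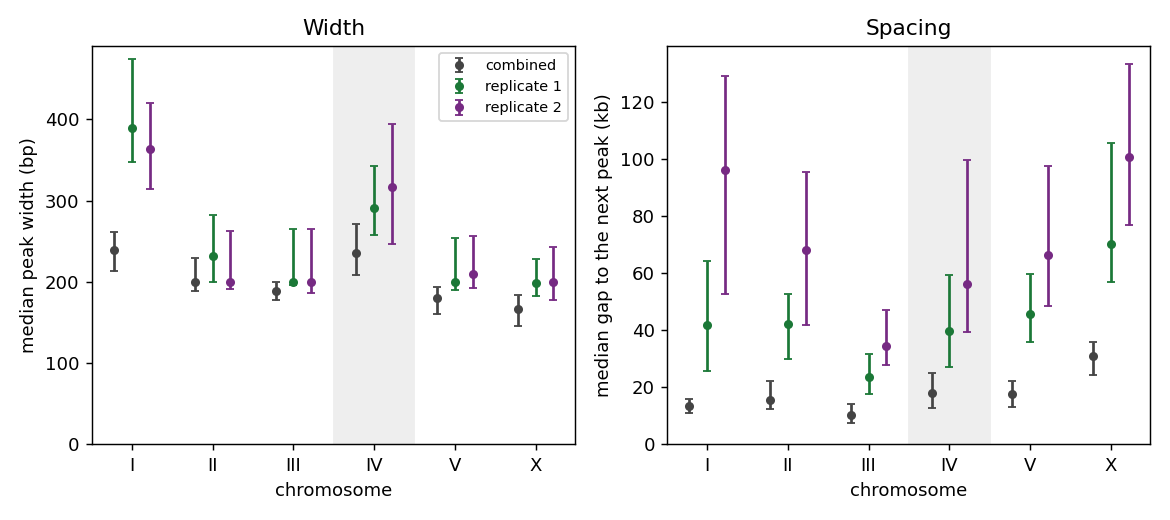
Median peak width in bp (left) and median gap to the next peak in kb (right) on each chromosome, for the combined list and the 2 ChIP replicate lists. Error bars are 95% order-statistic intervals of the median, and chromosome IV is shaded. Its combined peaks have a median width of 235 bp and a median gap of 18.1 kb.

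Replicate support on IV was similar to that elsewhere. Of the 398 combined peaks, 94 overlapped a peak of both replicates by at least 1 bp (23.6%, Wilson interval 19.7 to 28.0; 21.2% of all combined peaks). A further 96 overlapped a peak of replicate 1 alone (24.1%; 23.4% of all) and 21 a peak of replicate 2 alone (5.28%; 7.18% of all). The other 187 overlapped none (47.0%, interval 42.1 to 51.9; 48.3% of all). The differences from the other chromosomes were 2.86 points (-1.42 to 7.57) for both replicates and -1.51 points (-6.79 to 3.82) for neither. Chromosome I stood apart with 62.2% in neither replicate, and the other 4 chromosomes lay between 41.6% and 48.3%.

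Counting each replicate by itself, 190 peaks overlapped one of replicate 1 (47.7%; 44.6% of all) and 115 one of replicate 2 (28.9%; 28.4% of all).

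Support rose with strength, in lists that end near a strength of 2. No combined peak of IV lay below 2, and the weakest shared replicate peaks had 2.05 in replicate 1 and 2.01 in replicate 2. Among the 94 peaks found in both replicates, only 1 had a combined value below that of a replicate. A combined peak near the limit thus had little room for a listed partner. How far the rise, and the 187 peaks without a partner, follow from the limit was not tested. Above a strength of 10, 56 of the 59 peaks of IV had a partner in both replicates (94.9%; 93.3% on the other chromosomes), and 0 lacked any, for which the Wilson interval reaches 6.11%. From 4 to 10 the share in both was 34 of 108 (31.5%, interval 23.5 to 40.8), against 27.4% on the other chromosomes. Between 3 and 4 it was 3 of 91 (3.30%), against 3 of 477 (0.63%) elsewhere. Between 2 and 3 it was 1 of 140 (0.71%), namely the wide peak right of the missing left-end region, against 2 of 822 (0.24%). At that lowest level 123 of the 140 (87.9%) had no partner, close to the 85.5% of the other chromosomes. The median strength of the 94 doubly supported peaks was 11.85, and their median width was 687 bp. Peaks in neither had medians of 2.66 and 128 bp, and the strongest of them lay at 7084724 to 7085212 (5.57), 1710979 to 1711430 (5.33) and 16169539 to 16169809 (4.96). The last of these lies in the thin stretch of the right arm.

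**Figure D4:**
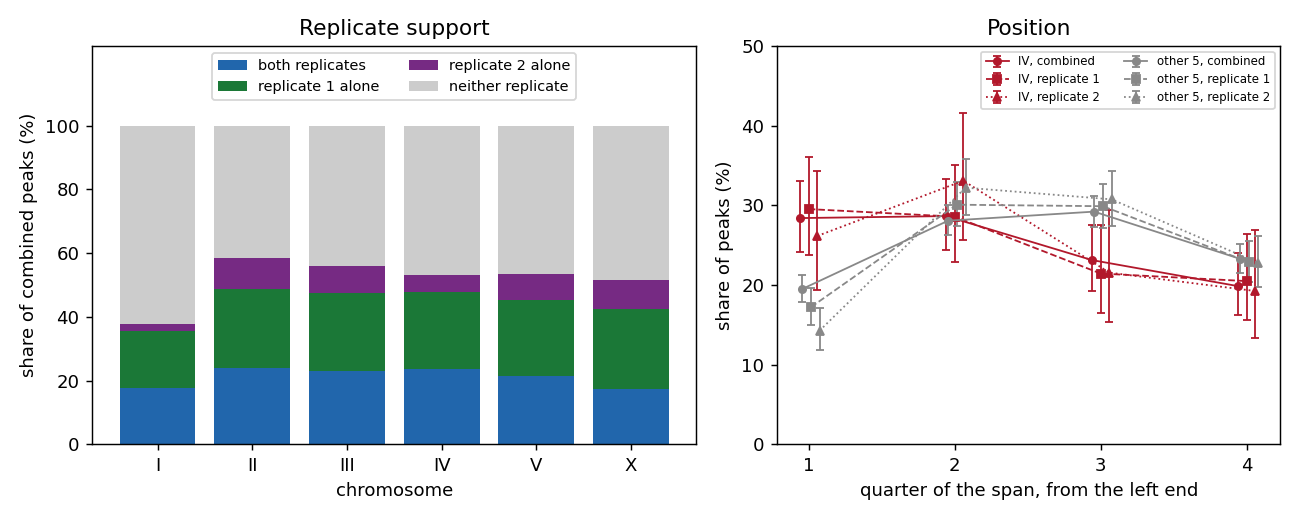
Left, share of the combined peaks of each chromosome that overlap a peak of both ChIP replicates, of 1 alone or of neither. Right, share of peaks in each of 4 equal parts of the span from the left end for chromosome IV (red) and the other 5 chromosomes together (grey) in the 3 lists, with 95% Wilson intervals. On IV, 23.6% of peaks were in both replicates, and the first 25% of the span held 26.2% to 29.5% of peaks in the 3 lists.

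Between the single libraries, 100 of the 130 replicate 2 peaks of IV overlapped a replicate 1 peak (76.9%, interval 69.0 to 83.3; 68.1% of all replicate 2 peaks). On the other chromosomes 66.5% did, a difference of 10.5 points (Newcombe interval 1.78 to 17.8). Single chromosomes ranged widely, from 58.1% on X to 88.9% on I, with IV second. The interval of the difference held 0 without peaks shorter than 50 bp (-0.95 to 15.4), with nearby peaks merged (-0.24 to 16.4) and among the stronger 50% of each list (-6.74 to 11.6). It lay above 0 with an overlap of at least 50% of the shorter peak (4.16 to 20.4) and without the first 1 Mb of IV (0.70 to 17.5). In the other direction 93 of the 210 replicate 1 peaks of IV overlapped a replicate 2 peak (44.3%, interval 37.7 to 51.0; 42.9% of all), against 42.7% elsewhere. The 100 pairs involved 93 replicate 1 peaks, since 6 of these were met by more than 1 replicate 2 peak.

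The shared peaks were placed closely. Their middles differed by a median of 62.5 bp, 70 of the 100 pairs lay within 100 bp, and in 65 pairs the shorter peak lay wholly inside the longer. The other chromosomes were alike: among their 452 pairs the median was 59.5 bp and 69.5% lay within 100 bp. In 65.0% of those pairs the shorter peak lay wholly inside the longer. Replicate 2 peaks were narrower in 79 of the 100 pairs of IV and had the smaller -log10 q in 89. Elsewhere this was so in 359 and 382 of the 452 pairs. Spearman's rho of strength was 0.79 on IV and 0.80 elsewhere, as a description over peaks, and Pearson's r on IV was 0.88, or 0.81 without the strongest pair. Over the 87 pairs in which no peak was used more than once, a subset chosen after seeing the values, rho was 0.85 and r was 0.98. The strongest pair (303.1 and 143.2) is among these 87, and their r was not computed without it.

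**Figure D5:**
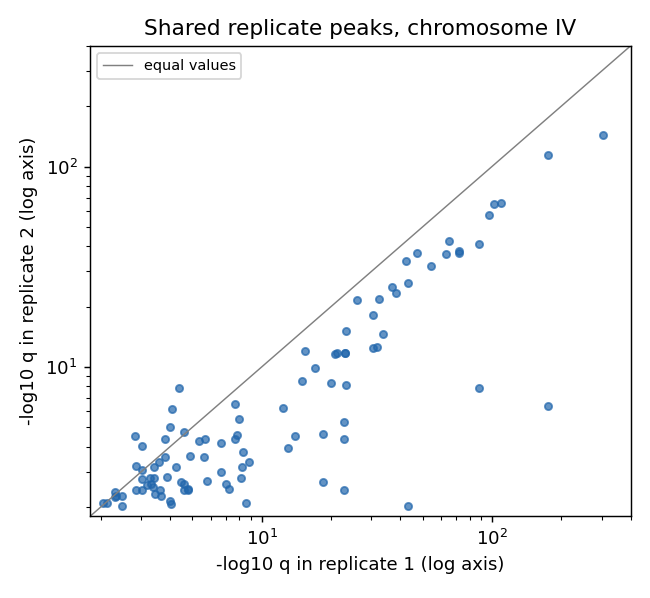
Strength of the 100 overlapping peak pairs of chromosome IV in ChIP replicate 1 (x axis) and ChIP replicate 2 (y axis), as -log10 q on log axes. Each point is 1 peak of replicate 2 beside its best-overlapping partner, and the line marks equal values. In 89 pairs the point lies below the line.

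The 10 peaks of IV with the smallest q-values among those found in both replicates were spread from end to end, with 7 in the left 50% of the span. The strongest, at 4748407 to 4750780, reached 250 among combined peaks, 175.6 in replicate 1 and 114.1 in replicate 2. It ranked 1 in the whole combined list, 3 in replicate 1 and 2 in replicate 2, and in replicate 2 it was split into 2 peaks. It was followed by the site at 384691 to 387304 and by one at 653715 to 655505, with strengths of 159.5, 102 and 65.1 in the 3 lists. Next came the site at 16865135 to 16866567 (146.9, 96.9 and 57.2) and one at 5208943 to 5211150 (135.3, 88.0 and 41.2). In replicate 2 the latter peak too was split into 2.

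The other 5 of these sites lay at 8378752 to 8380109, 14463768 to 14464973, 4445308 to 4446441, 6414225 to 6416429 and 13881377 to 13882817. Their combined strengths ran from 107.9 down to 88.6. At all 10 the listed -log10 q was largest in the combined list and smallest in replicate 2, values of lists whose depths are unknown. The replicate 2 peak was the narrowest of the 3 at every site, at 830 to 1429 bp, against 1134 to 2614 bp in the combined list. Their partners ranked no lower than 35 in replicate 1 and 32 in replicate 2.

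Replicate peaks missing from the combined list were few and, apart from the left-end region, none had a strength above 4.55. On IV 15 of the 210 replicate 1 peaks overlapped no combined peak (7.14%; 5.92% of all), as did 5 of the 130 replicate 2 peaks (3.85%; 5.19% of all). Leaving out the left-end region, the remaining 14 of replicate 1 had strengths from 2.04 to 3.49, the highest at 14032977 to 14033171. The remaining 4 of replicate 2 ran from 2.12 to 4.55, and the second of them by strength lay at 8232419 to 8232535 (2.65). The highest of each list lay above the median strength of that list on IV, 3.46 in replicate 1 and 3.36 in replicate 2.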

How the data were processed

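ChIP-seq peak lists of 2 ChIP libraries and 1 combined list were analysed, 3 in all. Per the file headers, coordinates are on WormBase WS190, and per the peak records the authors called peaks with PeakSeq. The only score deposited by the authors is a q-value for each peak. The aligner, filters, controls and the way the libraries were combined are not stated in any source used. The number of reads is unknown, so no interval covers depth.

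Starts and ends were taken as 1-based and inclusive. Peaks were assigned to IV by chromosome name, and -log10 q was computed. The columns of other samples numbered 0. Overlap meant at least 1 bp, and partners were the peaks of largest overlap. Shares carry Wilson intervals, differences of shares Newcombe intervals, medians exact order-statistic intervals and densities exact Poisson intervals, all at 95%. No p-value was computed, since peaks are members of a list and not replicates. The functions were tested on simulated lists (Python 3.11.15, scipy 1.17.1). Named peaks were the 10 smallest q-values found in both replicates, all peaks of the first 500 kb, the 3 strongest without support in each list, the widest, the narrowest and the 3 largest gaps. Other regions named were chosen after their values were seen. The members and lists were chosen with earlier results of these data known. The sequence of WS190 was not used here, and the RefSeq table (WBcel235) gave gene names, chromosome and order alone.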

Additional observations from a re-analysis of the deposited data

How the results depend on the processing

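Of 77 alternative values, 48 lay inside the 95% interval of the value in the report (for counts, within 1.5 times) and 29 outside. The 7 for the first 25% of the span were added after the data were seen. With either replicate list alone, density ran from 7.44 to 12.0 per Mb, median width from 290.5 to 317 bp, median gap from 39.7 to 56.1 kb, the share with a neighbour from 28.1% to 29.2% and the peaks of the first 1 Mb from 12 to 18. Counting a single replicate, 28.9% to 47.7% of combined peaks had a partner and 52.3% to 71.1% had none. Among the stronger 50% of each list, density was 11.96 per Mb, median width 414 bp, median gap 47.2 kb, the share with a neighbour 26.8%, replicate 2 peaks found in replicate 1 85.9%, the first 1 Mb 15 peaks and median strength 5.57. Without peaks shorter than 50 bp, density was 19.6 per Mb, median width 279 bp, the share in neither replicate 40.8% and median strength 3.93. The share with a neighbour was 27.2% with nearby peaks merged, 30.9% within 1 kb and 53.3% within 5 kb. The first 500 kb held 9 peaks, and without the first 1 Mb the first 25% of the span held 23.8%. Most of these settings use fewer peaks by construction, and other causes were not tested. The sign of the difference from the other chromosomes was kept in every alternative for the first 25% and the central 50% of the span, the neighbour share, replicate 2 peaks found in replicate 1 and both support classes, and it changed for replicate 1 peaks found in replicate 2 (-3.38 to 3.08 points). No paired analysis was possible because the values used here come from 1 group.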
